A study of Homo sapiens with 15 samples.

Results

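The RAB small GTPase genes were followed across 4 treatments of 2 human prostate cancer cell lines. A gene was taken as a member when its symbol was RAB followed directly by a number, from RAB1A to RAB43, and when at least 1 array feature carried that symbol and no other. This gave 58 genes of 18377 genes with a feature of their own, of which 56 lay on 1 feature and RAB7A and RAB13 on 2. Partner genes, RAB-like genes and pseudogenes were not members, and RAB4B, RAB6C, RAB6D, RAB7B and RAB34 were not analysed here. The study used PC3 cells, a line from a bone metastasis, and DU145 cells, a line from a brain metastasis. In each line, cells received 20 nM of a miR-224 mimic, a miR-452 mimic or a scrambled mimic with Lipofectamine 2000, or were left untransfected. The scrambled mimic is named Scr2 in the labels. Fresh medium was given at 6 h, and cells were harvested for RNA at 48 h. There were 8 PC3 arrays, 2 for each treatment, and 7 DU145 arrays, 2 for each treatment except the scrambled mimic, which had 1. Mimics are short synthetic RNA duplexes that load a cell with the microRNA they copy. Cells with a mimic differed from untransfected cells in the transfection as well as in the RNA, and these cannot be told apart in a comparison with untransfected cells.

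RAB proteins are small GTPases that sit on the membranes of particular organelles and direct the budding, transport, tethering and fusion of vesicles. Exchange factors load them with GTP, the active form binds effector proteins such as tethers and motor adaptors, and GTPase-activating proteins of the TBC family switch them off. A prenyl tail, added by a geranylgeranyl transferase with the help of an escort protein, anchors them in the membrane. In epithelial and prostate cancer cells they are known for traffic of receptors, integrins and secreted proteins.

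The mature microRNAs whose names the mimics carry are shown because the seed, bases 2 to 8, sets which messages a microRNA can pair with. The sequences are those of RefSeq, on the minus strand of chromosome X in build GRCh38.p14, with the seed in capitals. The labels do not say which arm the mimics held, so both arms are given.
hsa-miR-224-5p: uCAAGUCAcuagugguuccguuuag
hsa-miR-224-3p: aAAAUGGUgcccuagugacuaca
hsa-miR-452-5p: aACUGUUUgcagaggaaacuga
hsa-miR-452-3p: cUCAUCUGcaaagaaguaagug
They lie at chrX:151958628-151958652 (miR-224-5p), chrX:151958584-151958606 (miR-224-3p), chrX:151959678-151959699 (miR-452-5p) and chrX:151959634-151959655 (miR-452-3p). The 4 seeds differ from one another. Target sites in RAB messages were not searched, so no change below is tied to a seed.

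All levels are deposited log2 values. Those of PC3 and DU145 were normalized separately, so levels of a gene were tested only within a line, and changes are log2 differences with the standard error (SE) from limma. A call, or a gene that passed, means an adjusted p under 0.05 (Benjamini-Hochberg) over all 18377 genes. Replicate arrays correlated across genes with r between 0.991 and 0.998, and the replicates that differed most in the RAB genes were the DU145 miR-452 arrays, with a median absolute difference of 0.20. Nothing in the labels states that replicates came from separate cultures, so p-values reflect array-to-array spread that may be technical. The SD over all genes within an array was 1.65 to 1.69 in untransfected PC3 cells, against 1.57 to 1.64 in the other PC3 arrays, and 1.55 in untransfected DU145 cells, against 1.38 to 1.47 in the other DU145 arrays. Counts of RAB genes in each comparison are also given after quantile normalization, which gives the arrays of a line 1 common distribution. Counts with an array left out are given for the RAB genes only. They do not show whether the RAB genes shifted more than all genes did. Marker lists were read only probe by probe, because levels of different probes are not on 1 scale. In untransfected cells the 5 epithelial markers ran from CDH1 to KRT8 in both lines, at 7.01 to 11.32 in PC3 cells and 8.93 to 12.11 in DU145 cells. The 4 measured leukocyte markers ran from PTPRC to CD14, at 5.01 to 6.24 in PC3 cells and 5.12 to 6.36 in DU145 cells. The 5 fibroblast markers reached 8.36 (COL1A1) in PC3 and 7.06 in DU145, and the 5 endothelial markers reached 9.05 (KDR) in PC3 and 5.94 in DU145. Of the luminal prostate markers, KLK3 and KLK2 were measured, at 6.35 and 6.53 in PC3 and 5.66 and 5.99 in DU145.

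Before any treatment, a few RAB genes had deposited levels far apart in the lines. RAB5C, an early endosome RAB, had values of 6.87 and 6.97 in untransfected PC3 cells and 11.40 and 11.36 in untransfected DU145 cells. RAB31, which acts between the trans-Golgi and endosomes, averaged 6.97 in PC3 and 10.66 in DU145. RAB38, known from lysosome-related organelles, averaged 6.796 in PC3 and 8.42 in DU145. In the other direction, RAB27B, a RAB of secretory granules and exosomes, had 9.88 and 9.82 in PC3 and 7.99 and 7.92 in DU145. The median difference between the lines was 0.41 over all genes and 0.50 over the RAB genes. Against that of all genes, RAB27B, RAB36, RAB8A and RAB3D were more than 1 higher in PC3, RAB5C, RAB31, RAB38, RAB3B and RAB2A were more than 1 lower, and the other 49 RAB genes lay within 1. Of all genes, 6.89% were more than 1 higher and 4.02% more than 1 lower. These values are a description, because the separate normalization allows no test of a level between lines.

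**Figure D1:**
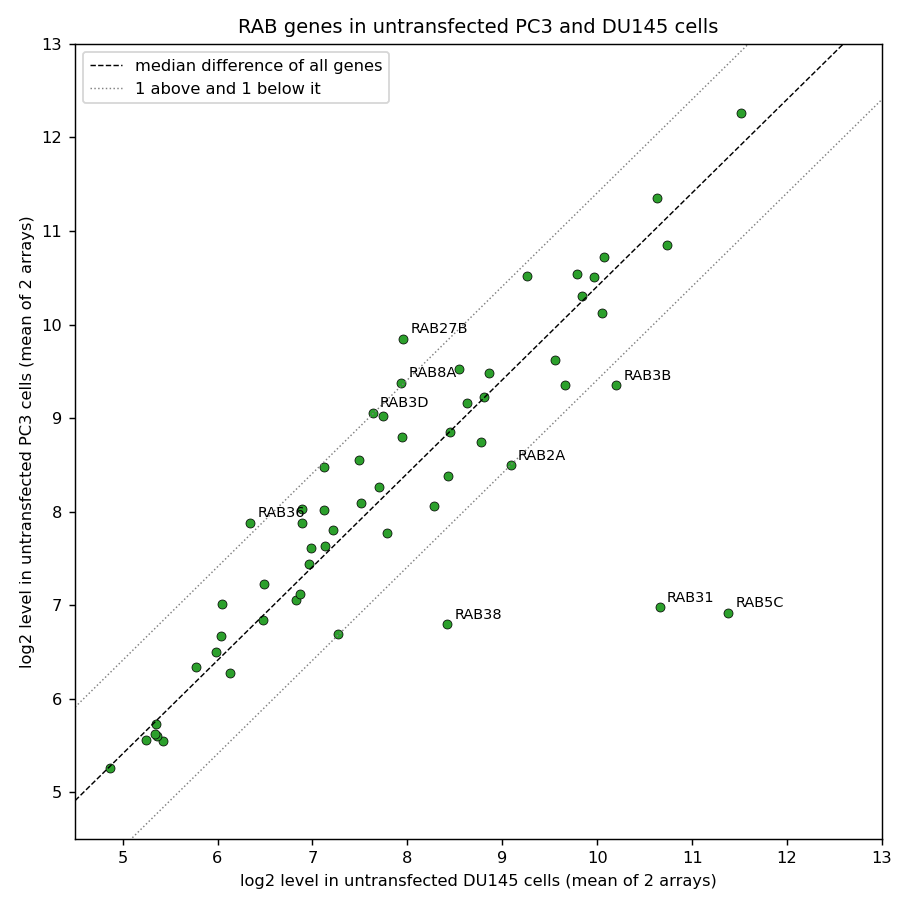
Log2 level of the 58 RAB genes in untransfected PC3 cells (vertical axis) and untransfected DU145 cells (horizontal axis), each the mean of 2 arrays. Each point is a gene, the dashed line marks the median difference of all genes (0.41), the dotted lines lie 1 above and 1 below it, and the 9 genes beyond them are named; RAB5C and RAB31 lie far below the line.

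Under treatment most RAB genes moved little. The largest and smallest of the 4 treatment means of a gene differed by a median of 0.28 in PC3 and 0.29 in DU145, and in each line 31 of 58 genes stayed within 0.30. The widest range was that of RAB18 in PC3 at 1.40 and that of RAB38 in DU145 at 0.85. A test of any difference among the 4 treatments called 23 RAB genes in PC3, 39.7% of them, against 31.6% of all genes. In DU145 it called 15 RAB genes, 25.9%, against 27.2% of all genes. After quantile normalization these counts were 18 in PC3 and 10 in DU145, against 5789 and 3508 of all 18377 genes (5802 and 4997 as deposited). The DU145 count of 15 RAB genes was 3 without untransfected array b, 2 without untransfected array c, 9 without miR-224 array c and 30 without miR-452 array c. In at least 1 of the 6 pairwise comparisons of a line, 27 RAB genes passed in PC3 (46.6%, against 40.3% of all genes) and 23 in DU145 (39.7%, against 39.2% of all genes). Quantile normalization also moved the share of rises among the calls of all genes. In PC3 it became 44.2% for scrambled minus untransfected (23.3% as deposited), 43.8% for miR-224 minus untransfected (29.3%) and 56.7% for miR-224 minus miR-452 (67.6%). In DU145 it became 43.04% for miR-224 and 49.9% for miR-452 minus scrambled (32.5% and 27.5%), 36.2% for scrambled minus untransfected (22.0%) and 39.2% for miR-224 minus untransfected (26.0%). For the line differences below it became 58.3% for miR-224 and 62.4% for miR-452 minus scrambled (78.8% and 76.3%).

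**Figure D2:**
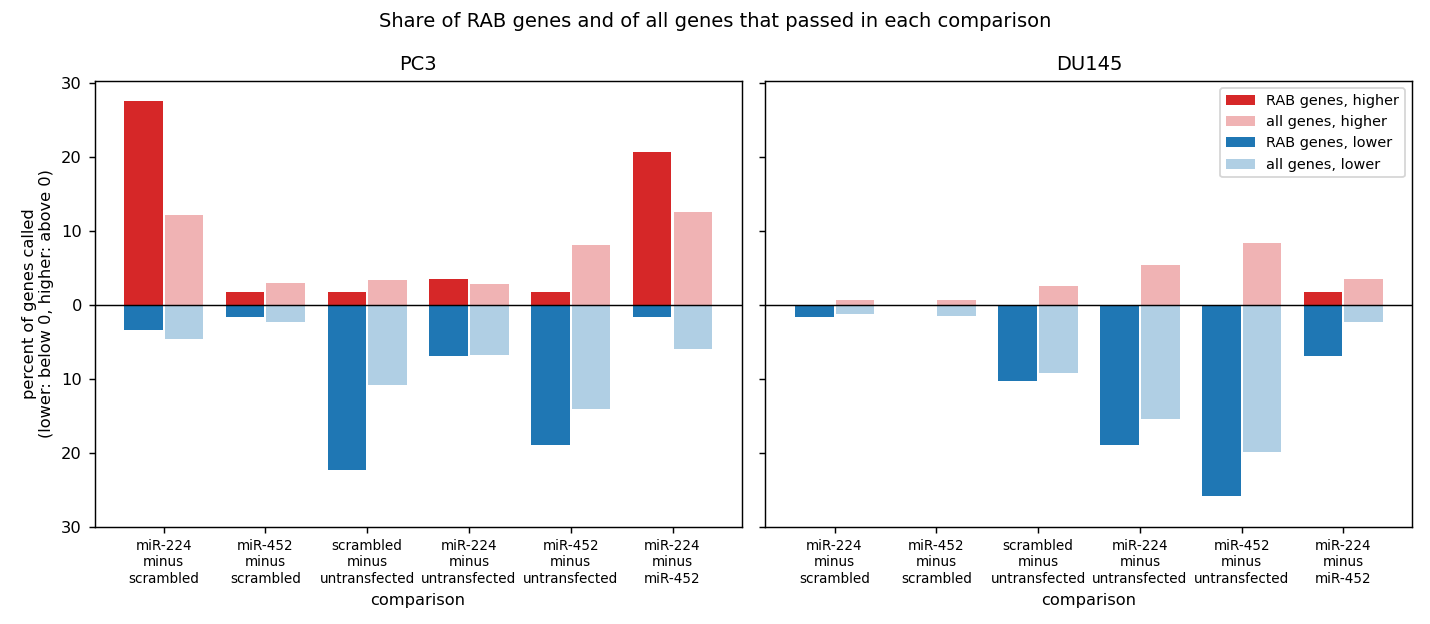
Percent of the 58 RAB genes (dark bars) and of all 18377 genes (pale bars) that passed in each comparison, in PC3 (left) and DU145 (right). Bars above 0 are genes higher in the first-named treatment, and bars below 0 are genes lower in it. The RAB bar for miR-224 minus scrambled in PC3 reaches 27.6% above 0, against 12.1% of all genes.

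With the miR-224 mimic in PC3, RAB18 and RAB21 were higher and RAB1B lower than with the scrambled mimic. The highest changes were those of RAB18 (1.40), RAB21 (0.96), the exocytic RAB3B (0.75) and RAB2A (0.59), a RAB of the ER and Golgi. In all, 18 of 58 RAB genes passed, against 16.8% of all genes: 16 rose (27.6%, against 12.1% of all genes) and 2 fell (3.45%, against 4.65% of all genes). The median change was 0.07 over the RAB genes and -0.01 over all genes. Smaller rises were those of RAB28, RAB29 and RAB30 at 0.44 each, RAB22A and RAB3D at 0.37, RAB1A at 0.36, RAB6A at 0.35 and RAB15 at 0.34, and the other 4 lay between 0.28 and 0.33. The 2 genes that fell were RAB1B, at -0.48, and RAB32, a RAB of mitochondria and lysosome-related organelles, at -0.36. By role, 5 of 14 ER and Golgi genes rose, as did 3 of 9 early endosome genes, 3 of 10 recycling genes, 2 of 8 late endosome genes, 2 of 10 secretion genes and 1 of 7 others. The calls of RAB1B, RAB3B, RAB18 and RAB21 held in every alternative run, including each left-out array. The count of 18 was 7 without scrambled array c, 9 without miR-224 array a and 5 without miR-224 array b. After quantile normalization 13 rose and 3 fell, while 18.8% of all genes passed in either direction. Among all calls the share of rises was then 57.0%, against 72.2% as deposited.

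Set against untransfected PC3 cells, 6 RAB genes passed with the miR-224 mimic (10.3%, against 9.69% of all genes). Of the 18 genes called against scrambled cells, 17, all but RAB1B, were closer to 0 here, as were 85.8% of all genes called against scrambled cells, a choice that itself favours values farther from 0 in that comparison. RAB18 (0.66) and RAB27B (0.30) were higher, 3.45% of the RAB genes against 2.84% of all genes. Called lower were RAB1B (-0.58), RAB27A (-0.47), RAB2B (-0.46) and RAB4A (-0.30), 6.90% against 6.85% of all genes. RAB27A drives exocytosis of granules, and RAB4A drives rapid recycling from early endosomes. The count of 6 was 3 without untransfected array b and 1, RAB1B, without miR-224 array b. With quantile normalization 4 were higher, now with RAB2A and RAB21, and 3 lower, while 10.7% of all genes passed in either direction.

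**Figure D3:**
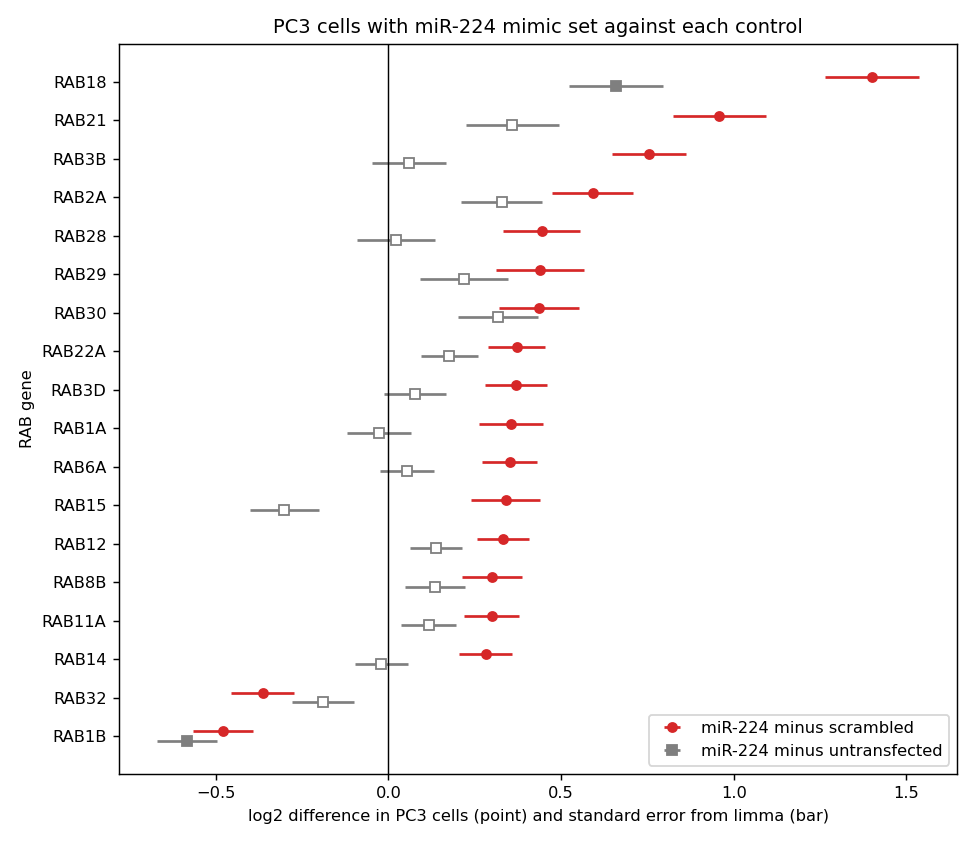
Log2 difference (point) and standard error from limma (bar) for the 18 RAB genes called for the miR-224 mimic against the scrambled mimic in PC3 cells. Red circles are against scrambled cells and squares against untransfected cells, filled where that difference passed; RAB18 and RAB1B are the genes with both calls.

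RAB genes also differed between cells with the scrambled mimic and untransfected cells, a comparison that holds the transfection as well as the RNA. In PC3 cells with that mimic 14 RAB genes passed (24.1%, against 14.2% of all genes). Of these, 13 RAB genes fell below untransfected cells (22.4%, against 10.9% of all genes), and RAB27B rose (0.28, 1.72% of RAB genes, against 3.32% of all genes). The genes that fell were RAB18 (-0.74), RAB3B (-0.70), RAB15 (-0.64), RAB21 (-0.60), RAB27A (-0.48), RAB35 (-0.46), RAB28 and RAB23 (-0.42 each), RAB1A (-0.38), RAB4A (-0.34), RAB14 and RAB6A (-0.30 each) and RAB3D (-0.29). RAB35 acts in recycling to the cell surface and RAB23 in signalling at the cilium. None of these 14 calls passed without untransfected array b, and 5 passed without scrambled array c. Quantile normalization left 1 rise and 6 falls among the 58 RAB genes, while 11.3% of all genes passed in either direction. The scrambled arrays are the control of the miR-224 and miR-452 changes as well, so the changes in these comparisons share them. For RAB1A, RAB3B, RAB3D, RAB6A, RAB14, RAB15, RAB18, RAB21 and RAB28, miR-224 cells were called above scrambled cells, and scrambled cells below untransfected cells. Among them miR-224 minus untransfected was 0.66 for RAB18, 0.36 for RAB21, 0.08 for RAB3D, 0.06 for RAB3B and 0.05 for RAB6A. It was 0.02 for RAB28, -0.02 for RAB14, -0.03 for RAB1A and -0.30 for RAB15, and of all these RAB18 alone was called.

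The miR-452 mimic in PC3 raised RAB3B (0.87) and lowered RAB8B (-0.57), which delivers cargo to the plasma membrane, relative to the scrambled mimic. No other RAB gene passed (3.45% in all, against 5.22% of all genes), so 1 rose (1.72%, against 2.89% of all genes) and 1 fell (1.72%, against 2.33%). Both calls held in every alternative run, and quantile normalization gave 1 rise and 2 falls, while 7.45% of all genes passed. Against untransfected PC3 cells 12 passed (20.7%, against 22.2% of all genes): RAB27B rose (0.55; 1.72%, against 8.12% of all genes) and 11 RAB genes fell (19.0%, against 14.1%). Those were RAB28 (-0.80), RAB8B (-0.73), RAB21 (-0.70), RAB4A (-0.55), RAB15 (-0.48), RAB30 (-0.45), RAB43 (-0.39), RAB1A (-0.35), RAB27A (-0.31), RAB2B (-0.29) and RAB14 (-0.26). RAB30 and RAB43 belong to the Golgi, RAB15 to endocytic recycling and RAB14 to traffic between the Golgi and endosomes. RAB4A, RAB8B, RAB15, RAB27B and RAB28 held in every alternative run. RAB3B was not called against untransfected PC3 cells. It averaged 9.52 with miR-452, 9.35 in untransfected cells and 8.66 with the scrambled mimic, while RAB8B was called against both controls. The count of 12 was 5 without untransfected array b and 7 without miR-452 array c. Quantile normalization left 3 rises and 8 falls, while 17.3% of all genes passed in either direction. In the same PC3 cells 11 of 12 measured interferon-response genes rose with miR-452 against the scrambled mimic, with a median change of 1.22, and MX1 rose by 2.01; their part in the RAB changes was not tested.

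In DU145 cells 1 RAB gene passed against the scrambled mimic. It was RAB38, which fell with miR-224 (-0.76; 1.72% in all, against 1.94% of all genes; 1.72% lower, against 1.31% of all genes), and no RAB gene rose (0.631% of all genes). With miR-452 no RAB gene passed limma's test against the scrambled mimic (2.10% of all genes did, 0.577% higher and 1.52% lower), while 8 had an unadjusted p under 0.05 (13.8%, against 15.5% of all genes). The single scrambled array in DU145 limits both comparisons, because its spread had to be taken from the other groups. The miR-224 count was 0 without miR-224 array a, and 4 without either miR-452 array. The miR-452 count was 2 without miR-452 array a and 3 without miR-452 array c. With quantile normalization RAB18 passed as higher with both mimics, RAB29 also with miR-452, and RAB38 still as lower with miR-224. Of all genes, 3.05% then passed with miR-224 and 3.89% with miR-452.

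Against untransfected DU145 cells every RAB call of a mimic was a fall. With miR-224, 11 RAB genes fell (19.0%, against 15.5% of all genes) and none rose (5.44% of all genes), while 21.0% of all genes passed in either direction. They were RAB38 (-0.85), RAB27B (-0.67), RAB2B (-0.64), RAB29 (-0.58), RAB4A (-0.56), RAB31 (-0.47), RAB1B (-0.43), RAB21 (-0.39), RAB2A (-0.35), RAB3B (-0.31) and RAB5A (-0.28). With miR-452, 15 fell (25.9%, against 19.9% of all genes) and none rose (8.31% of all genes), while 28.2% of all genes passed in either direction. The 12 largest were RAB8B (-0.68), RAB7A (-0.63), RAB4A (-0.61), RAB15 (-0.60), RAB28 (-0.59), RAB35 (-0.47), RAB2A (-0.43), RAB2B and RAB13 (-0.42 each), RAB3B (-0.39), RAB21 (-0.38) and RAB3D (-0.35), and RAB11B, RAB38 and RAB6B lay between -0.34 and -0.29. RAB7A, the RAB of late endosomes and lysosomes, was lower on both of its features: feature 1 averaged 11.32 with miR-452 and 11.61 in untransfected cells, and feature 2 averaged 6.53 with miR-452 and 7.49 in untransfected cells. With the scrambled mimic 6 fell (10.3%, against 9.22% of all genes) and none rose (2.60% of all genes), while 11.8% of all genes passed in either direction. These were RAB18 and RAB21 (-0.63 each), RAB3B (-0.56), RAB29 (-0.54), RAB1A (-0.52) and RAB35 (-0.50).

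These DU145 counts depended on scaling and on single arrays. Whether all genes shifted alike with an array left out is not given here. Quantile normalization left 1 rise and 5 falls with miR-224, 1 rise and 2 falls with miR-452, and 1 rise and 3 falls with the scrambled mimic. Of all genes, 13.9%, 12.3% and 5.13% then passed in either direction, in the same order. With miR-224 the count of 11 was 4 without untransfected array b, 2 without untransfected array c, 5 without miR-224 array a, 4 without miR-224 array c, and 17 without either miR-452 array. With miR-452 the count of 15 was 3 without untransfected array b, 0 without untransfected array c, 6 without miR-452 array a and 31 without miR-452 array c. With the scrambled mimic the count of 6 was 0 when either untransfected array was left out and 17 when either miR-452 array was. RAB38 with miR-224 was the call that held in every alternative run.

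**Figure D4:**
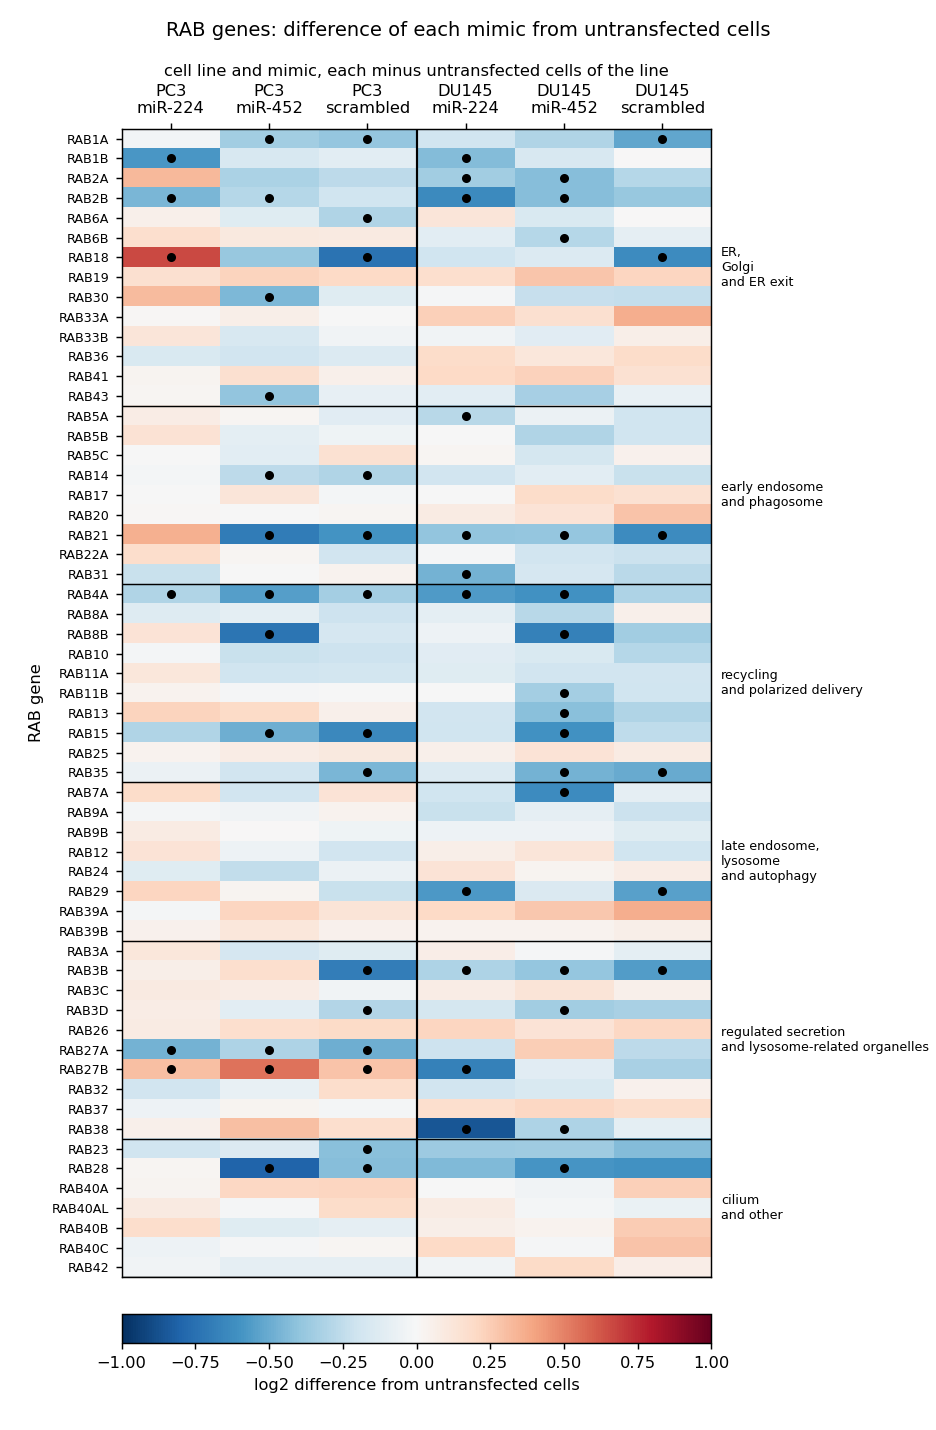
Log2 difference of miR-224, miR-452 and scrambled cells from untransfected cells of the same line, for the 58 RAB genes (rows, by role) in PC3 and DU145 (columns). Red is higher and blue lower than in untransfected cells, and a dot marks a call at adjusted p under 0.05; RAB4A has a dot in 5 of 6 columns, and RAB27B is called higher in PC3 under all 3 treatments and lower in DU145 under miR-224.

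The mimics were also compared with each other, a comparison that uses neither control. In PC3, 13 passed (22.4%, against 18.5% of all genes), and 12 RAB genes were higher with miR-224 than with miR-452 (20.7%, against 12.5% of all genes), led by RAB21 (1.05), RAB18 (1.04), RAB8B (0.87), RAB28 (0.82), RAB30 (0.77) and RAB2A (0.64). RAB1B was lower (-0.42; 1.72%, against 5.99% of all genes). The calls of RAB2A, RAB8B, RAB18, RAB21, RAB28 and RAB30 held in every alternative run, and the count of 13 was 7 without miR-224 array a and 8 without miR-224 array b. Quantile normalization gave 9 higher and 3 lower, while 19.8% of all genes passed in either direction. In DU145, 5 passed (8.62%, against 5.91% of all genes): RAB8B was higher with miR-224 than with miR-452 (0.63; 1.72%, against 3.53% of all genes), and RAB27B (-0.56), RAB38 (-0.54), RAB27A (-0.45) and RAB29 (-0.43) were lower (6.90%, against 2.38%). Quantile normalization gave 1 higher and 5 lower, while 7.79% of all genes passed in either direction. The DU145 count of 5 was 3 without either untransfected array, 1 without either miR-224 array, 8 without miR-452 array a and 13 without miR-452 array c. RAB8B was thus the RAB gene that passed in both lines, 8.3% of the PC3 rises and 100.0% of the DU145 rises, against 13.2% and 46.7% over all genes.

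Among the ER and Golgi genes, RAB18, a RAB of the ER and of lipid droplets, had the widest range of treatment means in PC3 (1.40), while in DU145 RAB2B (0.64) and RAB18 (0.63) were close together. In PC3 it measured 9.63 and 10.02 with miR-224, 8.75 and 8.82 with miR-452, 8.40 and 8.44 with the scrambled mimic, and 9.35 and 8.97 in untransfected cells. The miR-224 arrays were the highest and the scrambled arrays the lowest, and none of the 4 groups overlapped. Over scrambled cells, miR-224 raised it by 1.40 ± 0.14 (SE), 2.64-fold, with a limma adjusted p of 0.000122. Over untransfected cells the change was 0.66 ± 0.14 (adjusted p = 0.0113), and this call was lost without untransfected array c or miR-224 array b, where the adjusted p reached 0.107. DU145 cells had 8.46 and 8.40 with miR-224, 8.38 and 8.60 with miR-452, 7.996 with the scrambled mimic, and 8.63 and 8.62 in untransfected cells. There the scrambled array was lowest, the untransfected arrays were highest and the 2 mimics overlapped.

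RAB1B, which with RAB1A drives transport from the ER to the Golgi, was the RAB gene lowered by miR-224 against both PC3 controls. It measured 11.71 and 11.64 with miR-224, 12.10 and 12.10 with miR-452, 12.24 and 12.07 with the scrambled mimic, and 12.19 and 12.33 in untransfected PC3 cells. Both miR-224 arrays lay below the 6 others. The change was -0.48 ± 0.09 against scrambled cells (adjusted p = 0.00334) and -0.58 ± 0.09 against untransfected cells (adjusted p = 0.00186), and both calls held in every alternative run. Its DU145 values were 11.01 and 11.15 with miR-224, 11.19 and 11.51 with miR-452, 11.51 with the scrambled mimic, and 11.52 and 11.504 in untransfected cells. The miR-224 arrays were again the lowest, with a change of -0.43 ± 0.11 from untransfected cells (adjusted p = 0.0278) and of -0.44 ± 0.14 from the scrambled array (adjusted p = 0.185). The call against untransfected DU145 cells was lost after quantile normalization (-0.29) and without any of the untransfected or miR-224 arrays, where the adjusted p reached 0.144.

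RAB2B, a Golgi RAB, was below untransfected cells with both mimics in both lines. In PC3 it measured 8.29 and 8.27 with miR-224, 8.47 and 8.44 with miR-452, 8.66 and 8.42 with the scrambled mimic, and 8.74 and 8.74 in untransfected cells. On the DU145 arrays it was 8.20 and 8.07 with miR-224, 8.12 and 8.59 with miR-452, 8.40 with the scrambled mimic, and 8.75 and 8.80 in untransfected cells. The untransfected arrays were the highest of each line, and miR-224 did not overlap them. The changes from untransfected cells with miR-224 were -0.46 ± 0.09 in PC3 (adjusted p = 0.00785) and -0.64 ± 0.14 in DU145 (adjusted p = 0.0136). The PC3 call was lost without untransfected array b or miR-224 array b, and the DU145 call without either untransfected array or miR-224 array c, where the adjusted p reached 0.0855. RAB2B has a close paralogue, RAB2A, for which miR-224 minus untransfected was 0.33 ± 0.12 in PC3 (adjusted p = 0.11). The miR-452 changes of RAB2B were -0.29 in PC3 and -0.42 in DU145, calls that were lost after quantile normalization and without 6 PC3 and 5 DU145 arrays in turn.

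In the early endosome group, RAB21, which binds integrins and guides their uptake, was called in 4 of the 6 pairwise comparisons in PC3 and 3 in DU145. RAB14 was called in the same 4 PC3 comparisons, with changes of 0.24 to 0.30 in size, and in none in DU145. In PC3 RAB21 measured 9.26 and 9.49 with miR-224, 8.42 and 8.22 with miR-452, 8.48 and 8.36 with the scrambled mimic, and 9.23 and 8.80 in untransfected cells. The miR-224 and untransfected arrays were the higher ones, and miR-452 and scrambled arrays overlapped. With miR-224 it rose by 0.96 ± 0.14 over scrambled cells (1.94-fold, adjusted p = 0.000884), and its difference from untransfected cells was 0.36 ± 0.14 (adjusted p = 0.128). With miR-452 it fell by 0.70 below untransfected cells (SE 0.14, adjusted p = 0.00557), a call lost without untransfected array b, where the adjusted p was 0.0731. In DU145 RAB21 measured 7.39 and 7.31 with miR-224, 7.18 and 7.54 with miR-452, 7.12 with the scrambled mimic, and 7.72 and 7.77 in untransfected cells. All transfected DU145 arrays lay below both untransfected ones, and the falls with miR-224 (-0.39 ± 0.12) and miR-452 (-0.38 ± 0.12) were called, with adjusted p = 0.0431 and 0.0388. These 2 DU145 calls were lost after quantile normalization and without 4 (miR-224) and 5 (miR-452) of the DU145 arrays in turn, where the adjusted p reached 0.202 and 0.183.

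The recycling genes held RAB8B, RAB4A and RAB15. RAB8B in PC3 measured 8.96 and 9.01 with miR-224, 8.21 and 8.02 with miR-452, 8.72 and 8.65 with the scrambled mimic, and 8.89 and 8.81 in untransfected cells. The DU145 arrays read 8.47 and 8.34 with miR-224, 7.55 and 8.005 with miR-452, 8.10 with the scrambled mimic, and 8.42 and 8.48 in untransfected cells. In both lines the miR-452 arrays were the lowest and overlapped no other group. With miR-452 RAB8B was 1.66-fold lower than in untransfected PC3 cells (-0.73 ± 0.09, adjusted p = 0.000357) and 1.60-fold lower than in untransfected DU145 cells (-0.68 ± 0.14, adjusted p = 0.00932). The DU145 call was lost after quantile normalization, at -0.44, and without untransfected array c, where the adjusted p was 0.0605. Against scrambled cells the miR-452 change was -0.57 ± 0.09 in PC3 (adjusted p = 0.00267) and -0.32 ± 0.17 in DU145 (adjusted p = 0.409). RAB8B is the paralogue of RAB8A, which was called in no comparison in either line.

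RAB4A in PC3 measured 7.97 and 7.95 with miR-224, 7.67 and 7.75 with miR-452, 7.91 and 7.93 with the scrambled mimic, and 8.34 and 8.19 in untransfected cells. In DU145 it measured 7.21 and 7.08 with miR-224, 6.93 and 7.27 with miR-452, 7.40 with the scrambled mimic, and 7.61 and 7.80 in untransfected cells. Every transfected array of a line lay below both untransfected ones. With miR-452 RAB4A was -0.55 ± 0.08 from untransfected PC3 cells (adjusted p = 0.00128) and -0.61 ± 0.12 from untransfected DU145 cells (adjusted p = 0.00939). With miR-224 it was -0.30 ± 0.08 in PC3 (adjusted p = 0.0378) and -0.56 ± 0.12 in DU145 (adjusted p = 0.0137). The PC3 miR-452 call held in every alternative run. Quantile normalization ended the other 3 of these calls, as did leaving out some array: the adjusted p then reached 0.225 with miR-224 in PC3, 0.114 with miR-224 in DU145 and 0.081 with miR-452 in DU145.

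RAB15 in PC3 measured 8.03 and 8.13 with miR-224, 7.89 and 7.91 with miR-452, 7.89 and 7.60 with the scrambled mimic, and 8.33 and 8.44 in untransfected cells. In DU145 it measured 8.26 and 8.20 with miR-224, 7.66 and 7.99 with miR-452, 8.17 with the scrambled mimic, and 8.40 and 8.45 in untransfected cells. The untransfected arrays were the highest of each line, and in DU145 the miR-452 arrays were the lowest. With miR-452 it was -0.48 ± 0.10 from untransfected PC3 cells (adjusted p = 0.00719) and -0.60 ± 0.11 from untransfected DU145 cells (adjusted p = 0.00725). The DU145 call was lost without untransfected array c, where the adjusted p was 0.0575. In this role group 6 of 10 genes fell with miR-452 against untransfected DU145 cells, with a group median of -0.38 beside -0.02 over all genes, and 3 of 10 fell in PC3, with a group median of -0.19 beside 0.01 over all genes. Of all genes, 19.9% fell in that DU145 comparison and 14.1% in that of PC3. After quantile normalization 1 of 10 fell in DU145 and 3 of 10 in PC3. Of all genes, 12.3% and 17.3% then passed in either direction. Rises made up 39.41% and 45.75% of those calls, so the shares of all genes that fell were smaller.

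In the late endosome group RAB29, a partner of the kinase LRRK2 at the Golgi and lysosomes, was low with miR-224 in DU145. It measured 7.67 and 7.73 with miR-224, 8.05 and 8.23 with miR-452, 7.74 with the scrambled mimic, and 8.24 and 8.32 in untransfected DU145 cells. The miR-224 and scrambled arrays were the low ones and did not overlap the others. It was -0.58 ± 0.09 from untransfected cells with miR-224 (adjusted p = 0.00416) and -0.54 ± 0.11 with the scrambled mimic (adjusted p = 0.0249), and -0.03 ± 0.11 between miR-224 and the scrambled array (adjusted p = 0.981). Without untransfected array c the first call had an adjusted p of 0.0509, and without either untransfected array the call for the scrambled mimic was lost, with an adjusted p of up to 0.138. In PC3 it measured 8.16 and 8.39 with miR-224, 8.23 and 7.93 with miR-452, 7.9995 and 7.67 with the scrambled mimic, and 8.09 and 8.02 in untransfected cells. There the miR-224 change over scrambled cells was 0.44 ± 0.13 (adjusted p = 0.0356), a call lost without any of 4 arrays in turn, where the adjusted p reached 0.268.

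The secretion group held RAB3B, RAB27B and RAB38, each with its own pattern. RAB3B in PC3 measured 9.36 and 9.46 with miR-224, 9.54 and 9.50 with miR-452, 8.83 and 8.48 with the scrambled mimic, and 9.32 and 9.38 in untransfected cells. The scrambled arrays stood apart as the low group, and miR-224 and untransfected arrays overlapped. Over scrambled cells RAB3B rose by 0.75 ± 0.11 with miR-224 (adjusted p = 0.000885) and by 0.87 ± 0.11 with miR-452 (adjusted p = 0.000664). Over untransfected cells the differences were 0.06 ± 0.11 with miR-224 (adjusted p = 0.784) and 0.17 ± 0.11 with miR-452 (adjusted p = 0.256). In DU145 it measured 9.90 and 9.89 with miR-224, 9.76 and 9.86 with miR-452, 9.64 with the scrambled mimic, and 10.23 and 10.17 in untransfected cells. The scrambled array was again the lowest and the untransfected arrays were the highest, and the falls from untransfected cells with miR-224 (-0.31 ± 0.08, adjusted p = 0.0331) and miR-452 (-0.39 ± 0.08, adjusted p = 0.0122) were lost after quantile normalization and without either untransfected array.

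RAB27B was called higher than in untransfected cells under all 3 treatments in PC3, and lower with miR-224 in DU145. Of these calls, the 1 with miR-452 in PC3 held in every alternative run. The others were lost with the title letter as a replicate block, and the other PC3 calls also with some array left out. In PC3 it measured 10.07 and 10.23 with miR-224, 10.40 and 10.39 with miR-452, 10.09 and 10.18 with the scrambled mimic, and 9.88 and 9.82 in untransfected cells. All transfected PC3 arrays were above both untransfected ones, with miR-452 the highest, at 0.55 ± 0.08 over untransfected cells (adjusted p = 0.00148). In DU145 it measured 7.30 and 7.27 with miR-224, 7.69 and 7.998 with miR-452, 7.63 with the scrambled mimic, and 7.99 and 7.92 in untransfected cells. The miR-224 arrays were the lowest of DU145, 1.60-fold below untransfected cells (-0.67 ± 0.11, adjusted p = 0.00411). With miR-452 the DU145 difference was -0.11 (adjusted p = 0.442), and 1 miR-452 array lay above both untransfected ones. Its paralogue RAB27A fell with miR-224 in PC3 against untransfected cells (-0.47 ± 0.09, adjusted p = 0.00578), at 6.99 and 6.94 with miR-224 against 7.53 and 7.34 in untransfected cells. That RAB27A call was lost without untransfected array b or miR-224 array b.

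RAB38 was the DU145 gene with the smallest p. It measured 7.53 and 7.60 with miR-224, 8.09 and 8.13 with miR-452, 8.32 with the scrambled mimic, and 8.45 and 8.40 in untransfected DU145 cells. The 4 groups did not overlap, and miR-224 was the lowest. With miR-224 it was 1.81-fold lower than in untransfected cells (-0.85 ± 0.08, adjusted p = 0.000575) and 1.69-fold lower than on the scrambled array (-0.76 ± 0.10, adjusted p = 0.00838). Without miR-224 array a the adjusted p against the scrambled array was 0.0613. PC3 values of RAB38 were 6.86 and 6.83 with miR-224, 7.08 and 7.12 with miR-452, 6.799 and 7.13 with the scrambled mimic, and 6.73 and 6.86 in untransfected cells. There the groups overlapped, apart from miR-452 lying above miR-224 and untransfected arrays, and no comparison called it.

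RAB28, a RAB tied to the cilium and to photoreceptors, was lower with miR-452 than in untransfected cells of both lines. Against the scrambled mimic the main fit gave no call for miR-452, though some alternative runs did in PC3. In PC3 it measured 7.67 and 7.92 with miR-224, 7.03 and 6.92 with miR-452, 7.36 and 7.34 with the scrambled mimic, and 7.92 and 7.62 in untransfected cells. The miR-452 arrays were the lowest, then the scrambled arrays, and the miR-224 and untransfected arrays overlapped. It was 1.74-fold lower with miR-452 than in untransfected PC3 cells (-0.80 ± 0.11, adjusted p = 0.000976), and -0.38 ± 0.11 from scrambled cells (adjusted p = 0.0819). The latter difference was called with genes under percentile 20 left out, after quantile normalization and with the title letter as a replicate block. RAB28 was also lower with the scrambled mimic than in untransfected PC3 cells (-0.42). In DU145 it measured 7.38 and 7.29 with miR-224, 6.90 and 7.48 with miR-452, 7.17 with the scrambled mimic, and 7.76 and 7.80 in untransfected cells. Every transfected DU145 array was below both untransfected ones, but the miR-452 arrays spanned all other transfected ones. The DU145 change with miR-452 was -0.59 ± 0.16 from untransfected cells (adjusted p = 0.0248) and 0.02 from the scrambled array (adjusted p = 0.99). The call against untransfected cells was lost after quantile normalization and without either untransfected array or miR-452 array a, where the adjusted p reached 0.109.

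**Figure D5:**
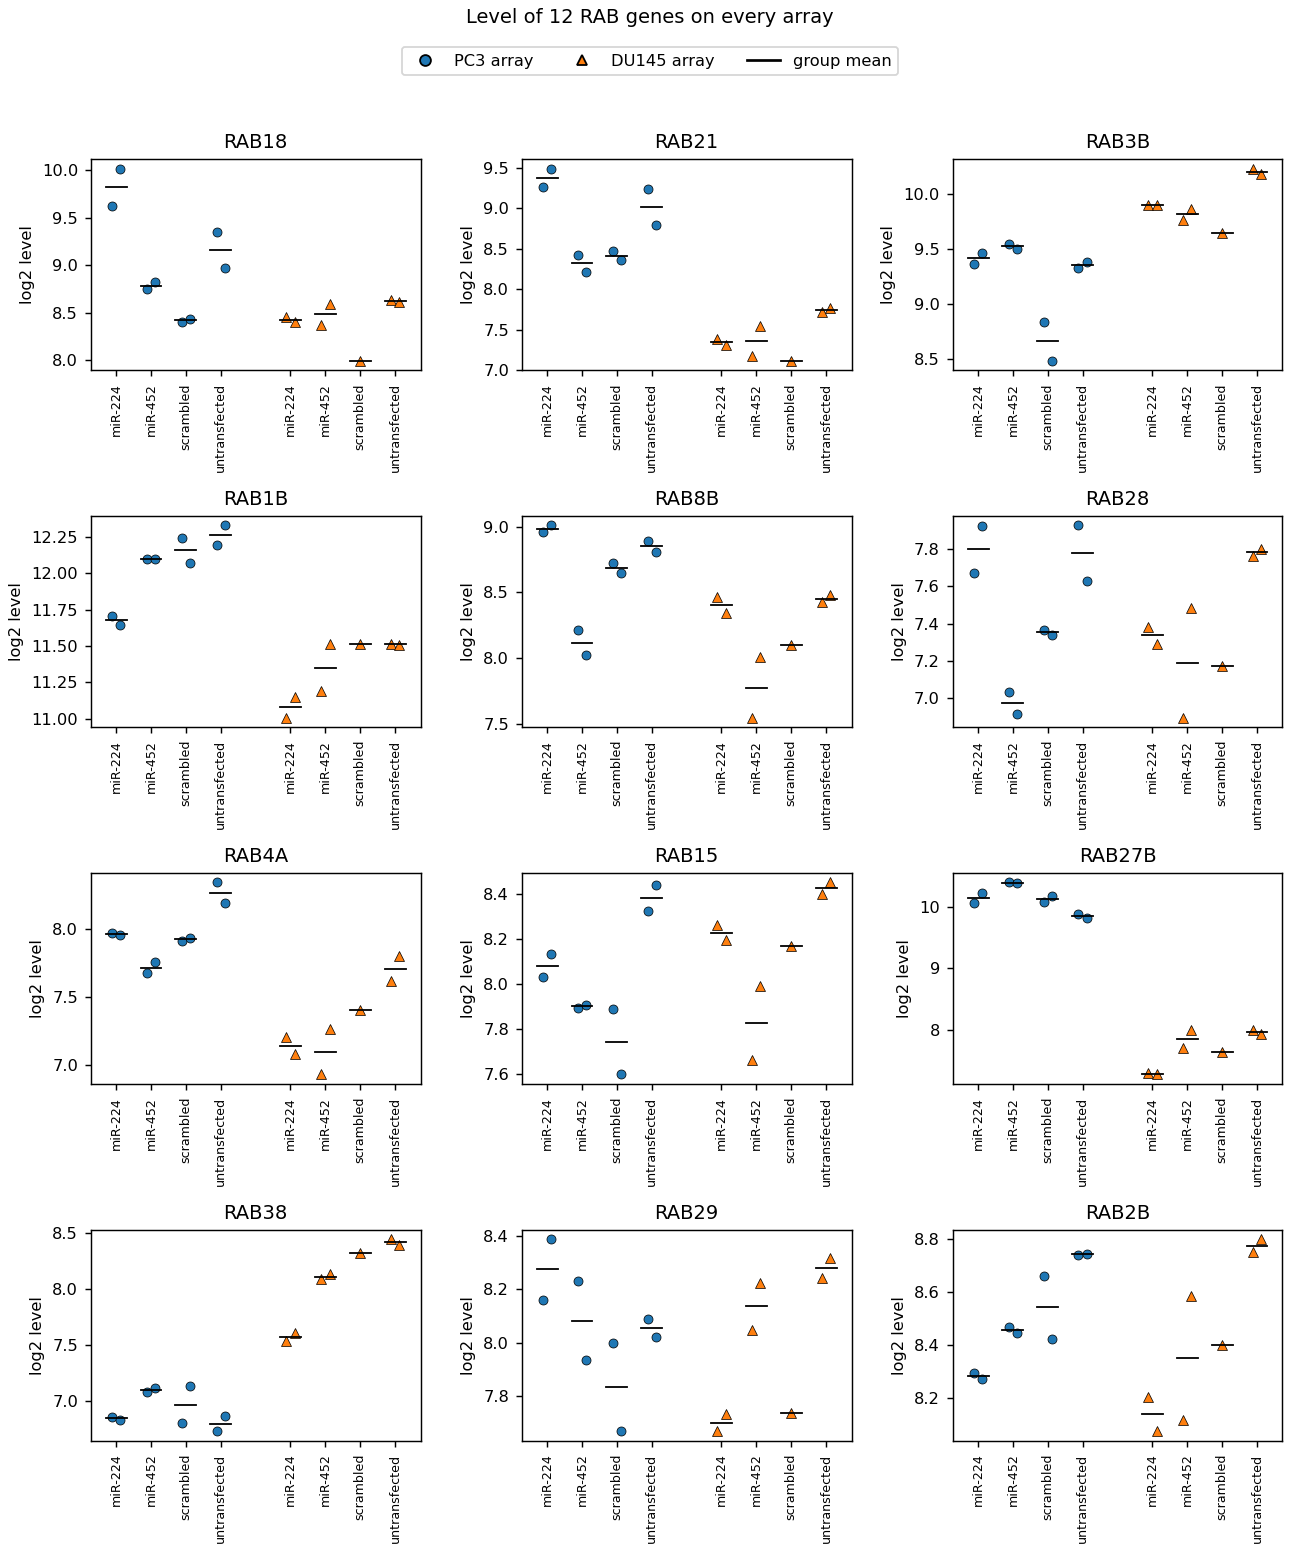
Log2 level of 12 RAB genes on every array, with treatments along the horizontal axis, PC3 arrays as circles and DU145 arrays as triangles, and group means as bars; vertical axes differ between genes and do not start at 0. RAB18 in PC3 is highest with miR-224 (9.63 and 10.02), RAB8B is lowest with miR-452 in both lines, and RAB38 in DU145 is lowest with miR-224 (7.53 and 7.60).

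The calls that the lines shared were counted for each comparison. Against scrambled cells no RAB gene passed in both lines for either mimic, where DU145 had 1 RAB call for miR-224 and 0 for miR-452. Of all genes, 0.430% rose and 0.871% fell in both lines with miR-224 against scrambled cells, and 0.294% rose and 0.473% fell with miR-452. With miR-224 against untransfected cells, RAB1B, RAB2B and RAB4A fell in both, 75.0% of the PC3 falls and 27.3% of the DU145 falls, against 56.8% and 25.1% over all genes. With miR-452, RAB2B, RAB4A, RAB8B, RAB15, RAB21 and RAB28 fell in both, 54.5% of the PC3 falls and 40.0% of the DU145 falls, against 62.5% and 44.3% over all genes. With the scrambled mimic, RAB1A, RAB3B, RAB18, RAB21 and RAB35 fell in both, 38.5% of the PC3 falls and 83.3% of the DU145 falls, against 42.3% and 50.1% over all genes. RAB4A, RAB2B and RAB21 thus appear under more than 1 treatment, and within a line the 3 treatments share the untransfected arrays.

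The change itself was compared between lines in 1 fit of all 15 arrays. Only RAB18 differed for miR-224 against scrambled cells, with 1.40 in PC3 and 0.43 in DU145 (difference 0.97 ± 0.21, adjusted p = 0.0366), 1.72% of RAB genes against 1.15% of all genes (0.909% higher and 0.245% lower in PC3). That call was lost without any of 9 of the arrays in turn, among them both PC3 miR-452 arrays, PC3 miR-224 array b and all DU145 untransfected and miR-224 arrays, with an adjusted p of up to 0.157. For miR-452 against scrambled cells no RAB gene passed limma's test (0.620% of all genes did, 0.473% higher and 0.147% lower), and 6 had an unadjusted p under 0.05 (10.3%, against 10.5% of all genes). Against untransfected cells 6 differed for miR-224, all higher in PC3 (10.3%, against 5.13% of all genes in either direction, 4.33% higher and 0.794% lower). For miR-452, 5 differed, 4 of them higher in PC3 (8.62%, against 2.88% of all genes in either direction, 2.20% higher and 0.680% lower). RAB27B had the smallest p for miR-224, with 0.30 in PC3 and -0.67 in DU145 (difference 0.97 ± 0.14, adjusted p = 0.00286), and RAB38 followed with 0.05 in PC3 and -0.85 in DU145 (difference 0.90 ± 0.14, adjusted p = 0.00447). The count of 6 was 2 without PC3 untransfected array c, PC3 miR-224 array b, either DU145 untransfected array or DU145 miR-224 array c. The count of 5 was 0 without PC3 miR-452 array b, either DU145 untransfected array or DU145 miR-452 array a, 1 without PC3 untransfected array b or PC3 miR-452 array c, and 3 without PC3 untransfected array c or either PC3 miR-224 array.

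The other 25 RAB genes passed in none of the 6 pairwise comparisons of either line (43.1%, against 44.3% of all genes). They include the endosomal and exocytic RAB genes RAB5B, RAB5C, RAB8A, RAB9A and RAB10, and RAB24 of autophagy. Others were RAB3C, RAB9B, RAB17, RAB19, RAB20, RAB25, RAB26, RAB33A, RAB33B, RAB36, RAB37, RAB39A, RAB39B, RAB40A, RAB40AL, RAB40B, RAB40C, RAB41 and RAB42. RAB40A and RAB40AL are near-identical copies, so their signals may not be separate. A gene that did not pass is not shown to be unchanged at this number of arrays.

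The proteins that load, switch off and read RAB proteins were described from lists of general knowledge. The exchange factor list held 40 measured genes. Of these, 13 rose and 3 fell with miR-224 against scrambled PC3 cells (median 0.10), where 12.1% of all genes rose and 4.65% fell. After quantile normalization 11 rose and 5 fell, while 18.8% of all genes passed in either direction. The lowest p was that of TRAPPC4, a subunit of the TRAPP complex that activates RAB1 and RAB11, at -0.95 ± 0.08 (adjusted p = 5.08e-05). TRAPPC4 also fell with miR-224 against untransfected PC3 cells (-1.32, adjusted p = 2.41e-05), the scrambled DU145 array (-1.09, adjusted p = 0.00349) and untransfected DU145 cells (-1.36, adjusted p = 0.000208). Against untransfected cells its calls held in every alternative run in both lines. Against untransfected cells 1 exchange factor rose and 2 fell with miR-224 in PC3 (2.84% and 6.85% of all genes), and 1 rose and 11 fell in DU145 (5.44% and 15.5% of all genes). With miR-452, 1 rose and 12 fell in PC3 (8.12% and 14.1% of all genes), and 1 rose and 15 fell in DU145 (8.31% and 19.9% of all genes). Quantile normalization left 3 rises and 2 falls with miR-224 in PC3, 4 and 3 in DU145, 4 and 8 with miR-452 in PC3, and 1 and 4 in DU145. Of all genes, 10.7%, 13.9%, 17.3% and 12.3% then passed in either direction, in the same order. DENND6A, an exchange factor of RAB14, fell with miR-452 by 0.64 against untransfected PC3 cells (adjusted p = 0.000608) and by 0.72 against untransfected DU145 cells (adjusted p = 0.00296).

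Of 32 measured TBC genes, 8 rose and 1 fell with miR-224 against scrambled PC3 cells (12.1% and 4.65% of all genes). After quantile normalization 7 rose and 1 fell, while 18.8% of all genes passed in either direction. The smallest p was that of TBC1D13, which switches off RAB35, at 1.00 (adjusted p = 9.84e-05). TBC1D13 was lower with the scrambled mimic than in untransfected PC3 cells (-0.73, adjusted p = 0.0021), and miR-224 minus untransfected was 0.28 there (adjusted p = 0.0949). TBC1D1, a GTPase-activating protein of RAB8 and RAB10 on glucose transporter vesicles, fell against untransfected cells with both mimics in both lines. It was -0.79 with miR-224 and -0.69 with miR-452 in PC3, and -1.11 with miR-224 and -0.69 with miR-452 in DU145, and all 4 calls held in every alternative run. TBC1D1 was also lower with the scrambled mimic than in untransfected PC3 cells (-0.43, adjusted p = 0.016), a call that did not hold in every alternative. Against untransfected DU145 cells 1 TBC gene rose and 13 fell with miR-224 (5.44% and 15.5% of all genes), and 1 rose and 12 fell with miR-452 (8.31% and 19.9% of all genes). Quantile normalization left 1 rise and 5 falls with miR-224, and 0 rises and 3 falls with miR-452, while 13.9% and 12.3% of all genes passed in either direction.

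Of 47 measured effector genes, 15 rose and 1 fell with miR-224 against scrambled PC3 cells (median 0.12), where 12.1% of all genes rose and 4.65% fell. After quantile normalization 14 rose and 2 fell, while 18.8% of all genes passed in either direction. The effectors with the smallest p as deposited were ANKFY1, a RAB5 effector also called rabankyrin (0.85, adjusted p = 0.00013), the vacuolar tether subunits VPS41 (0.83, adjusted p = 0.000501) and VPS39 (0.57, adjusted p = 0.00223), and RBSN, the RAB4 and RAB5 effector rabenosyn (0.80, adjusted p = 0.000638). In DU145 ANKFY1 rose with miR-224 over the scrambled array too (1.16, adjusted p = 0.0022). With miR-452 it also rose over the scrambled mimic, in PC3 (0.48, adjusted p = 0.00629) and in DU145 (0.80). Against untransfected cells ANKFY1 was not called for miR-224 in either line. ANKFY1 was lower with the scrambled mimic than in untransfected cells in PC3 (-0.68, adjusted p = 0.00176) and DU145 (-0.998, adjusted p = 0.0102). The DU145 call was lost without either untransfected array. RUFY1, an effector of RAB4 and RAB14, fell with miR-224 below untransfected cells in PC3 (-0.61, adjusted p = 0.00103) and DU145 (-0.86, adjusted p = 0.00086). RABEP1, the RAB5 effector rabaptin, fell with miR-452 below untransfected cells in PC3 (-0.62, adjusted p = 0.00122) and DU145 (-0.80, adjusted p = 0.00198). The calls of RUFY1 and RABEP1 against untransfected cells held in every alternative run. With miR-452 against untransfected cells 9 effectors fell and 1 rose in PC3 (14.1% and 8.12% of all genes), and 18 fell and 1 rose in DU145 (19.9% and 8.31% of all genes). Quantile normalization left 6 falls and 5 rises in PC3, and 6 falls and 1 rise in DU145, while 17.3% and 12.3% of all genes passed in either direction.

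Among 7 measured genes of prenylation and RAB recycling, 1 fell with miR-224 against scrambled PC3 cells (4.65% of all genes). It was the escort protein CHML (-0.25, adjusted p = 0.0409), a call lost without any of 6 arrays in turn. RABGGTB, the catalytic subunit of the geranylgeranyl transferase, fell below untransfected cells with miR-452 (-0.54, adjusted p = 0.00695) and the scrambled mimic (-0.56, adjusted p = 0.011) in PC3. In DU145 it fell with miR-224 (-0.54, adjusted p = 0.0146), miR-452 (-0.38, adjusted p = 0.0397) and the scrambled mimic (-0.56, adjusted p = 0.0404). All 5 calls were lost without untransfected array b of the line, and those of DU145 after quantile normalization as well. YIPF6 fell below untransfected cells with miR-452 in PC3 (-0.49, adjusted p = 0.00231), and with miR-224 (-0.59, adjusted p = 0.00347) and miR-452 (-0.51, adjusted p = 0.00592) in DU145. RABAC1 was called lower with miR-224 (-0.66) and miR-452 (-0.83) than on the single scrambled DU145 array. On that array it was higher than in untransfected DU145 cells (0.53), opposite to RABGGTB. Of 4 measured RAB-like genes, 3 fell with miR-452 against untransfected DU145 cells (19.9% of all genes). In PC3 1 fell with miR-452 against scrambled and 1 against untransfected cells (2.33% and 14.1% of all genes). Against the scrambled DU145 array 1 fell (1.52% of all genes). IFT22, a subunit of the transport train of cilia, fell in each of these comparisons. It was -1.06 from scrambled and -0.87 from untransfected PC3 cells (adjusted p = 6.46e-05 and 0.000119), and -1.13 from the scrambled DU145 array and -0.90 from untransfected DU145 cells (adjusted p = 0.00372 and 0.00123). Its PC3 calls and its DU145 call against untransfected cells held in every alternative run, and its DU145 call against the scrambled array did not. RABL3 rose with miR-224 over scrambled PC3 cells (0.78, adjusted p = 0.00082).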

How the data were processed

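Each RNA sample of PC3 or DU145 cells was hybridised to an Affymetrix Human Gene 1.0 ST array. The deposited log2 values were made by the authors with RMA16 normalization in GeneSpring GX 11.0, with the lines normalized separately, per the series' design text; the build and probe set definition are not given in the sources used here. Features with 1 symbol, named through GEO's platform annotation with symbols updated by Entrez number, were averaged per symbol, giving 18377 genes with no filter. Groups came from the labels. limma 3.58.1 (R 4.3.3) fitted 4 group means per line, with 4 residual degrees of freedom in PC3 and 3 in DU145. The lone DU145 scrambled array was assumed to vary like the other groups, and the authors left out the other one for bad performance. Tests were two-sided, Benjamini-Hochberg adjusted over all genes. A fit of all 15 arrays (7 residual degrees of freedom) tested line differences. The script was tested on simulated data.

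Alternatives were genes under percentile 20 left out, all features unaveraged, quantile normalization within the line, trend and robust moderation, the title letter as a replicate block, untransfected cells as control for line differences, and each array left out. Members, role groups and lists were chosen with earlier results of these data known. Named were all RAB genes that passed in a comparison of a mimic, up to 12 per direction by size, and up to 4 members per list by p; array values are given for the 6 RAB genes with the smallest F-test p in each line and for those called alike for a mimic in both lines. The count of arrays limits the precision. Whether probes of close paralogues cross-hybridise was not tested.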

Additional observations from a re-analysis of the deposited data

Results flagged for a closer look

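The difference between the lines (PC3 change minus DU145 change) passed limma's test for several RAB genes, and each is given with both changes. For miR-224 against scrambled cells RAB18 differed by 0.97. For miR-224 against untransfected cells the differences were 0.97 for RAB27B, 0.90 for RAB38, 0.86 for RAB18 (0.66 in PC3, -0.20 in DU145), 0.80 for RAB29 (0.22 in PC3, -0.58 in DU145), 0.75 for RAB21 (0.36 in PC3, -0.39 in DU145) and 0.68 for RAB2A (0.33 in PC3, -0.35 in DU145). For miR-452 against untransfected cells they were 0.66 for RAB27B (0.55 in PC3, -0.11 in DU145), 0.61 for RAB38 (0.30 in PC3, -0.31 in DU145), 0.61 for RAB13 (0.19 in PC3, -0.42 in DU145), 0.56 for RAB3B (0.17 in PC3, -0.39 in DU145) and -0.56 for RAB27A (-0.31 in PC3, 0.25 in DU145). The differences of RAB27B and RAB38 with miR-224 held with each array left out, whereas each of the other 10 was lost without at least 5 arrays in turn, and all 12 were lost with the title letter as a replicate block. With that block 0 of all genes passed for miR-224 against scrambled cells, and 1 for miR-224 and 29 for miR-452 against untransfected cells. After quantile normalization the difference of RAB38 with miR-452 was 0.32 and was lost, and those of RAB21 with miR-224 (0.67) and RAB27A with miR-452 (-0.59) were lost as well. Groups had at most 2 arrays, so no single array could be tested as an outlier.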

How the results depend on the processing

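No RAB call of the main fit changed direction under any alternative run. The direction of changes that were not called was not checked. Leaving out genes under percentile 20 or using all features unaveraged moved no count of RAB genes by more than 1.5 times. Quantile normalization gave 7 calls for the scrambled mimic against untransfected PC3 cells (14 as deposited), while 11.3% of all genes passed (14.2% as deposited). In DU145 it gave 2 for miR-224 and 2 for miR-452 against the scrambled array (1 and 0), and 6 for miR-224 and 3 for miR-452 against untransfected cells (11 and 15). Of all genes, 3.05% and 3.89% then passed against the scrambled array, and 13.9% and 12.3% against untransfected cells. Trend and robust moderation gave 2 and 2 against the scrambled DU145 array (1 and 0) and 11 between the mimics in DU145 (5). Of all genes, 690, 924 and 1538 then passed (357, 386 and 1086 in the main fit). Quantile normalization and trend and robust moderation each gave 1 call for the line difference of miR-452 against scrambled cells (0). Of all genes, 173 and 170 then passed (114 in the main fit). With untransfected cells as control, 6 and 5 RAB genes differed between lines for miR-224 and miR-452 (1 and 0). Quantile normalization kept 3 of those calls for miR-452. Same-letter deviations correlated with r of -0.15 to 0.27 in PC3 and -0.31 to 0.05 in DU145. At 2 arrays per group, the 2 deviations of a group mirror each other, so these values cannot decide whether the title letters mark a shared batch. The letter as replicate block used up residual degrees of freedom, which were 4 in PC3 and 3 in DU145 without it. With the block, 8 RAB genes passed for miR-224 against scrambled PC3 cells (18) and 7 between the mimics in PC3 (13). Of all genes, 1732 (3080) and 1952 (3400) then passed. In DU145 the block left 0 for miR-224 and 0 for the scrambled mimic set against their controls (scrambled and untransfected cells), 1 for miR-224 and 2 for miR-452 against untransfected cells, 3 between the mimics and 9 in the test of any difference (15), and 0 for each line difference. Of all 18377 genes, 17, 413, 463, 445, 728 and 2031 then passed in these DU145 tests, in the same order. For the line differences, 0 passed for each mimic against scrambled cells, and 1 for miR-224 and 29 for miR-452 against untransfected cells. The calls it ended include RAB38 with miR-224 against the scrambled array, RAB27B with miR-224 and RAB8B and RAB15 with miR-452 against untransfected DU145 cells, and the line differences of RAB18, RAB27B and RAB38. The block changed no other count by more than 1.5 times. A block with crossed DU145 miR-452 letters, added after the data were seen, gave 7 between the mimics.

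Leaving out each array in turn gave, in PC3, 5 to 19 calls for miR-224 and 2 to 3 for miR-452 against scrambled cells, 0 to 14 for the scrambled mimic, 1 to 7 for miR-224 and 5 to 13 for miR-452 against untransfected cells, 7 to 14 between the mimics and 16 to 24 for any difference. In DU145 it gave 0 to 4 and 0 to 3 against the scrambled array, 0 to 17, 2 to 17 and 0 to 31 against untransfected cells, 1 to 13 between the mimics and 2 to 30 for any difference. The line differences gave 0 to 1 for each mimic against scrambled cells. The scrambled DU145 array could not be left out of comparisons that need it. All-gene counts with an array left out are not given here, so these ranges do not set the RAB genes apart from all genes. The cause of these shifts was not tested. Of the list members named by rule, 77 of 186 calls held in every alternative run.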
